A study of Homo sapiens with 6 samples.

Results

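Follistatin and the activin system comprise 9 genes here: the antagonists FST and FSTL3, the related FSTL1, the activin subunits INHBA and INHBB, the type I receptors ACVR1 and ACVR1B, and the type II receptors ACVR2A and ACVR2B. They were picked by gene symbol with their difference between the lines already known, so their values are given as a description, without p-values. All 9 were found among the 17039 genes of the expression table, and all 9 had a mean of at least 0.1 FPKM over the libraries. FPKM is a read density, scaled by the depth of the library and by transcript length, so levels of different genes can be set side by side.

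The study sequenced poly(A)-selected RNA of 2 human breast cancer cell lines, with 3 libraries of each, to look for genes related to brain metastasis. MDA-MB-231 is a triple-negative line, that is, one classed as lacking the oestrogen receptor, the progesterone receptor and HER2, and 231-BR is its brain-seeking variant, received as a gift. Both were grown in DMEM with 10% foetal bovine serum and 1% penicillin-streptomycin, and the medium of 231-BR cells also held 200 μg/mL of G418, so the line and the antibiotic cannot be told apart. It is not stated whether the replicates were separate cultures, and p-values then measure just the spread between these libraries, which may be technical. The cell-line label goes up by 1 with each replicate of either line, while titles and cell types name the same pair of lines, and libraries were grouped by title.

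Summed FPKM ran from 465020 to 472007 in 231-BR and from 486937 to 496420 in MDA-MB-231 libraries, and read counts were not given, so depth is unknown. Vimentin (VIM) and CD44, both known from this line, were at 2553 ± 14.8 and 181 ± 3.95 FPKM in 231-BR and 2306 ± 28.7 and 251 ± 2.67 FPKM in MDA-MB-231 cells (mean ± SD, n = 3). The means of ESR1 and PGR were under 1 FPKM in both lines (ESR1 was at 1.08 FPKM in 231-BR replicate 1), whereas ERBB2 was at 9.88 ± 0.316 and 4.95 ± 0.176 FPKM. Markers of leukocytes, endothelium, astrocytes, microglia and hepatocytes (PTPRC, PECAM1, GFAP, AIF1 and ALB) had means of at most 0.420 FPKM. In such bulk libraries, fewer cells that express a gene and less RNA per cell cannot be told apart.

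Activins are dimers of inhibin β subunits, activin A of the product of INHBA and activin B of that of INHBB. An activin dimer binds a type II receptor, which phosphorylates a type I receptor, and the type I receptor in turn phosphorylates SMAD2 and SMAD3, which enter the nucleus with SMAD4. Follistatin (FST) and FSTL3 wrap around the ligand outside the cell and keep it from its receptors, while FSTL1 shares the follistatin domain but is not a high-affinity activin trap. In breast cancer the family is known both for restraining growth and for invasion.

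FST is transcribed from the forward strand of chromosome 5 (chr5:53480409-53487134, GRCh38, GENCODE release 29). It is annotated with coding sequences for 344 and 317 residues. The longer form ends in an acidic tail that the shorter one lacks, and the shorter form is the one known to bind cell-surface heparan sulphate. The table gives 1 value per gene and so cannot separate these forms.

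The activin subunit genes INHBA and INHBB, of which INHBA had by far the wider difference between the lines, have regions before their RefSeq starts of very different base composition. The stretches shown were taken from the 250 bases before the RefSeq start of each gene (GRCh38.p14). For INHBA (chr7:41703109-41703340, reverse strand) the 18 bases next to the start are left off, as GENCODE places them in the first exon of a transcript, and INHBB (chr2:120345886-120346135, forward strand) is whole. GENCODE also has an INHBA transcript that starts further up, at position 41705834, and the stretch shown lies in an intron of it. Capitals mark CCAAT and GGGCGG, on either strand.
INHBA: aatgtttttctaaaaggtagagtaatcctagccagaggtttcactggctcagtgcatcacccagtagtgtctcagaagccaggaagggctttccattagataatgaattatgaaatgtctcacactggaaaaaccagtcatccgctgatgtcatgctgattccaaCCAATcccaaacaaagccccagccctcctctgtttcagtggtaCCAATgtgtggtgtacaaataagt
INHBB: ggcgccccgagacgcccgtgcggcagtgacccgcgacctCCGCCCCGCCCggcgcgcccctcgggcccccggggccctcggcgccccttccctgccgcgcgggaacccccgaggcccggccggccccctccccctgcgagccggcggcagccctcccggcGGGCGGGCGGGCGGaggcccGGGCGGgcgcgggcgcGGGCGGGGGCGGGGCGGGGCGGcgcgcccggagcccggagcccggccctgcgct
Over the full 250 bases, GC content was 42.8% for INHBA and 89.6% for INHBB, beside a median of 58% over 35116 such windows. The INHBA window held CCAAT, the CCAAT box, 2 times and no GGGCGG, the GC box, while the INHBB window held 10 GC boxes, some of them overlapping, and no CCAAT box. TATAAA, the TATA box, was found 1 time in the INHBA window, at position -11 within the 18 bases left off, and not in that of INHBB. Of all windows, 32% held CCAAT, 42.6% held GGGCGG and 10.7% held TATAAA. These matches are letters in a window and were not tested for binding.

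Of the 9 genes, FST had the largest difference between the lines. FST was at 73.56, 71.45 and 75.21 FPKM in replicates 1, 2 and 3 of 231-BR cells, and at 2.95, 2.33 and 2.96 FPKM in those of MDA-MB-231 cells. The lowest 231-BR library stood far above the highest MDA-MB-231 library. The means were 73.4 ± 1.88 and 2.75 ± 0.361 FPKM (SD, n = 3), a ratio of 26.7, and the difference on the log2(FPKM + 0.1) scale was 4.70 with a standard error (SE) of 0.079. The mean of FST was higher than that of 93.7% of the genes in the table in 231-BR cells and of 45.0% in MDA-MB-231 cells, so a gene of middling rank in the parental line stood among the abundant transcripts of the variant. By this log2 difference FST ranked 62 among the 13465 genes tested. These had a mean of at least 0.1 FPKM over the libraries, a filter that lets in genes near the floor in either line. The study, with a criterion of at least 1 FPKM, placed FST among its most up-regulated genes. Exons of FST share no bases with those of another annotated gene.

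**Figure D1:**
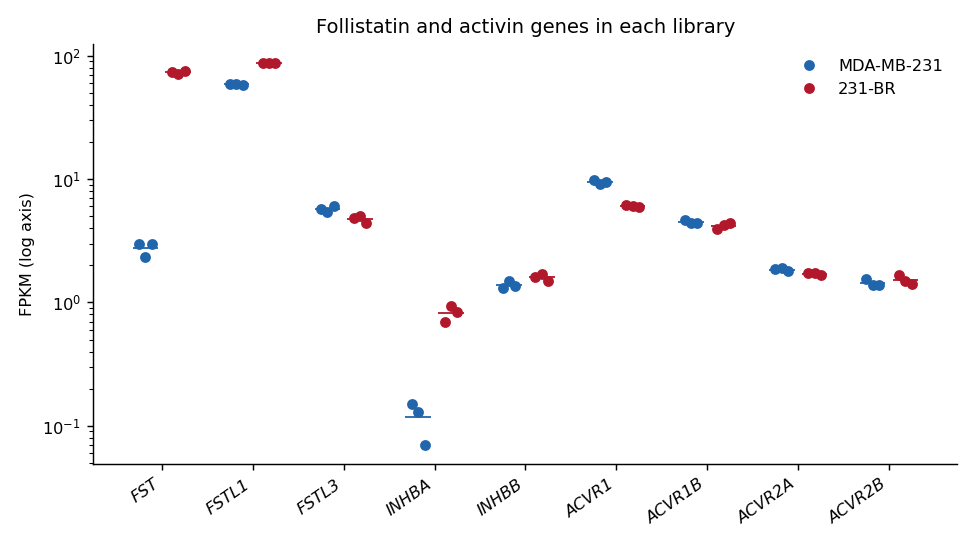
FPKM of the 9 genes in each library, on a log axis, with MDA-MB-231 libraries in blue and 231-BR libraries in red (points) and the mean of each line (lines, n = 3). FST and INHBA show wide gaps between the lines, from 2.75 to 73.4 and from 0.117 to 0.820 FPKM, while INHBB and the type II receptors lie close together.

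FSTL3, the other secreted activin trap, differed the opposite way and by far less. Its level was 4.88, 5.04 and 4.44 FPKM in 231-BR and 5.69, 5.38 and 6.01 FPKM in MDA-MB-231 cells. All 231-BR libraries were below all MDA-MB-231 libraries, with means of 4.79 ± 0.311 and 5.69 ± 0.315 FPKM and a log2 difference of -0.25 (SE 0.066). FST was therefore 15.4 ± 1.41 times FSTL3 in 231-BR and 0.481 ± 0.044 times FSTL3 in MDA-MB-231 cells. Of the summed FPKM of the 2 traps, FST made up 93.9% ± 0.514 in 231-BR and 32.5% ± 2.02 in MDA-MB-231 cells, so the more abundant of the pair was FST in the variant and FSTL3 in the parental line.

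FSTL1, a secreted glycoprotein of mesenchymal cells, was the most abundant of the 9 genes in both lines. It stood at 87.31, 87.09 and 87.21 FPKM in 231-BR and 59.42, 58.85 and 58.03 FPKM in MDA-MB-231 cells. The lines did not overlap, and the means of 87.2 ± 0.110 and 58.8 ± 0.699 FPKM gave a ratio of 1.48 and a log2 difference of 0.57 (SE 0.022). FSTL1 exceeded FST 21.7 ± 3.12 times in MDA-MB-231 and 1.19 ± 0.030 times in 231-BR cells, where the levels of these genes were thus nearly alike. Exons of FSTL1 share 316 of 8727 bases with a gene on the other strand, AC063952.1, and 62 with MIR198 on the same strand. Use of strand in the counting is not stated, so reads from the bases shared with AC063952.1 cannot be told apart.

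Of the ligand subunits, INHBA was low in both lines and INHBB was higher than INHBA in every library. INHBA was at 0.7, 0.93 and 0.83 FPKM in 231-BR and at 0.15, 0.13 and 0.07 FPKM in MDA-MB-231 cells. The lines did not overlap, but values near 0.1 FPKM carry few digits, since the table has 2 decimals. The means were 0.820 ± 0.115 and 0.117 ± 0.042 FPKM, a ratio of 7.03. The log2 difference was 2.10 (SE 0.19) and moved with the constant added before taking logs, from 0.70 with 1 to 2.76 with 0.01.

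INHBB, the activin B subunit, was at 1.61, 1.69 and 1.49 FPKM in 231-BR and 1.32, 1.48 and 1.36 FPKM in MDA-MB-231 cells. The lowest 231-BR and the highest MDA-MB-231 library differed by less than the spread within either line. The means were 1.60 ± 0.101 and 1.39 ± 0.083 FPKM with a log2 difference of 0.19 (SE 0.091), which turned to -0.20 under quantile normalization. INHBA made up 33.9% ± 3.08 of the summed FPKM of both subunits in 231-BR and 7.72% ± 2.67 in MDA-MB-231 cells. INHBB was the more abundant subunit in every library, by 1.97 ± 0.285 times in 231-BR and 13.2 ± 5.54 times in MDA-MB-231 cells.

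Set against each other, trap transcripts outweighed ligand subunit transcripts in every library. The summed FPKM of FST and FSTL3 was 34.0, 29.2 and 34.3 times that of INHBA and INHBB in 231-BR, and 5.88, 4.79 and 6.27 times in MDA-MB-231 cells. The lines did not overlap, at means of 32.5 ± 2.86 and 5.65 ± 0.768. With FSTL1 counted among the traps the ratios were nearer to each other, at 68.7 ± 5.43 and 44.8 ± 3.03. The sum of the traps went from 8.44 ± 0.653 FPKM in MDA-MB-231 to 78.2 ± 1.59 FPKM in 231-BR cells, and the sum of the subunits from 1.5 ± 0.095 to 2.42 ± 0.176 FPKM. FST alone over INHBA alone gave 90.8 ± 14.1 in 231-BR and 26.6 ± 13.6 in MDA-MB-231 cells. Replicates 1, 2 and 3 of MDA-MB-231 were at 19.7, 17.9 and 42.3. In replicate 3 INHBA was at just 0.07 FPKM, so this mean is imprecise. These are ratios of transcripts, and protein was not measured in these files.

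**Figure D2:**
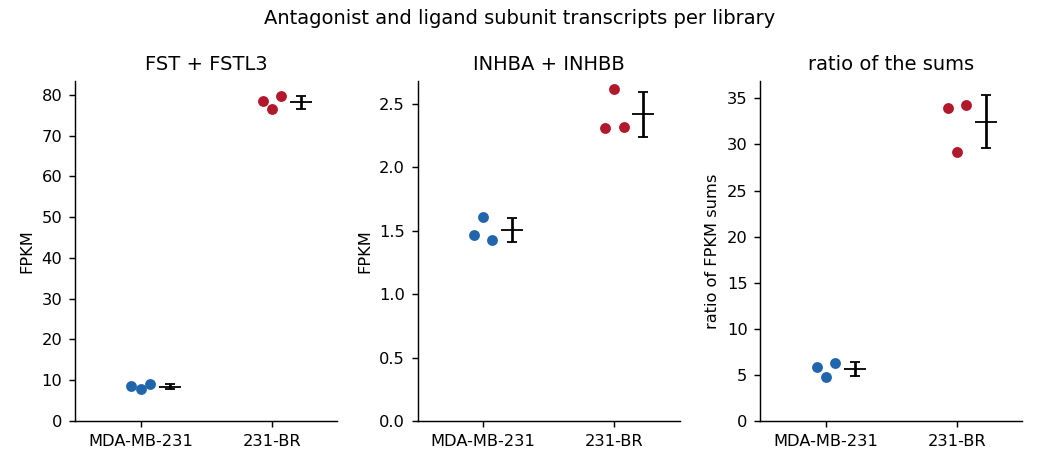
Summed FPKM of the traps FST and FSTL3 (left), of the ligand subunits INHBA and INHBB (middle) and their ratio (right) in each library (points), with mean ± SD (bars, n = 3); the axes start at 0. The trap sum is 78.2 in 231-BR against 8.44 FPKM in MDA-MB-231 cells, the subunit sum 2.42 against 1.5 FPKM and the ratio 32.5 against 5.65.

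Among the type I receptors, ACVR1 (also called ALK2, a receptor for bone morphogenetic proteins that activins can also occupy) was lower in 231-BR cells. It was at 6.15, 6.07 and 5.94 FPKM in 231-BR and 9.82, 9.15 and 9.48 FPKM in MDA-MB-231 cells. The lines did not overlap, and the means of 6.05 ± 0.106 and 9.48 ± 0.335 FPKM, 1.57 times higher in MDA-MB-231, gave a log2 difference of -0.64 (SE 0.046). ACVR1 was the member furthest below zero.

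ACVR1B (ALK4), the main type I receptor of activin A and B, hardly differed. Its libraries were at 3.95, 4.22 and 4.44 FPKM in 231-BR and 4.67, 4.43 and 4.44 FPKM in MDA-MB-231 cells, so the lines overlapped. The means were 4.2 ± 0.245 and 4.51 ± 0.136 FPKM with a log2 difference of -0.10 (SE 0.062). ACVR1 exceeded ACVR1B 1.44 ± 0.110 times in 231-BR and 2.10 ± 0.035 times in MDA-MB-231 cells.

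The type II receptors, which bind the ligand first, were at similar levels in the lines. ACVR2A was at 1.74, 1.73 and 1.67 FPKM in 231-BR and 1.85, 1.89 and 1.8 FPKM in MDA-MB-231 cells. The lines were close but did not overlap, with means of 1.71 ± 0.038 and 1.85 ± 0.045 FPKM and a log2 difference of -0.10 (SE 0.076). Exons of ACVR2A share 430 of 6770 bases with those of ORC4 and 110 with those of AC009480.1, both on the other strand. The log2 difference of ORC4 was 0.43. ACVR2B was at 1.68, 1.5 and 1.4 FPKM in 231-BR and 1.54, 1.39 and 1.39 FPKM in MDA-MB-231 cells. These libraries overlapped, with means of 1.53 ± 0.142 and 1.44 ± 0.087 FPKM, and the log2 difference of 0.08 (SE 0.097) changed sign under both other scalings of the libraries. The summed FPKM of both type II receptors was 3.24 ± 0.175 in 231-BR and 3.29 ± 0.10 in MDA-MB-231 cells, beside 10.3 ± 0.143 and 14.0 ± 0.460 FPKM for the type I receptors ACVR1 and ACVR1B.

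In order of level, the genes in 231-BR cells were FSTL1, FST, ACVR1, FSTL3, ACVR1B, ACVR2A, INHBB, ACVR2B and INHBA. Libraries of FSTL3 and ACVR1B met at 4.44 FPKM, and those of ACVR2A and INHBB and of INHBB and ACVR2B overlapped, so these neighbours in the order were not separated by their spread. In MDA-MB-231 cells the order was FSTL1, ACVR1, FSTL3, ACVR1B, FST, ACVR2A, ACVR2B, INHBB and INHBA, with overlap between ACVR2B and INHBB. FST moved from the fifth place to the second, and the other 8 genes otherwise kept their order but for INHBB and ACVR2B.

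**Figure D3:**
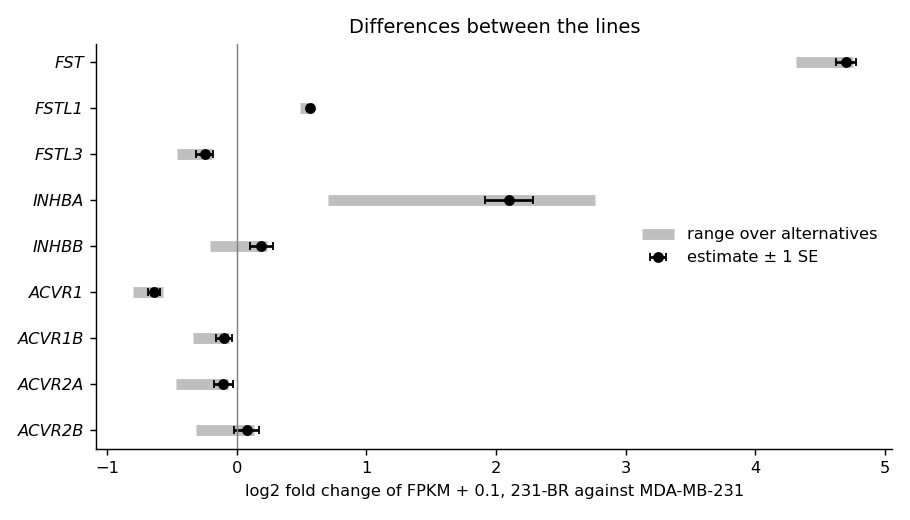
Log2 fold change of FPKM + 0.1, 231-BR against MDA-MB-231, for the 9 genes (points) with 1 SE (thin bars) and the range over other ways of processing (grey bars). FST stands at 4.70 with a range of 4.32 to 4.75, INHBA has the widest range, 0.70 to 2.76, and the grey bars of INHBB and ACVR2B cross 0.

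In a fit across all 13465 genes with limma and Benjamini-Hochberg adjustment, 77.3% of genes had an adjusted p under 0.05. Beside this, 5 of the 9 genes were past that threshold: FST, FSTL1 and INHBA were higher in 231-BR cells (44.4% of all genes were) and FSTL3 and ACVR1 were lower (32.9% of all genes were). For 7 of the 9 genes every library of one line was above every library of the other, beside 78.4% of all genes. The criteria for differentially expressed genes (DEGs) were an adjusted p under 0.05, an absolute log2 difference over 1 and a mean of at least 1 FPKM in both lines. FST was the 1 gene of the 9 to meet them, beside 6.45% of all genes (4.68% that were higher in 231-BR cells), and INHBA was kept out by its level. Since the genes were chosen with this contrast known, nothing is read from these counts. The median log2 difference was 0.08 for the 9 genes and 0.08 for all genes, and quantile normalization moved that of all genes to -0.06.

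The rest of the pathway was followed in 7 lists with 72 genes, of which 66 were in the table and 51 passed the filter of 0.1 FPKM. The lists were chosen with earlier results of these data known, so adjusted p-values of their genes are given as a description. In the same limma fit, 23 of the 51 rose in 231-BR cells, 17 fell and 11 did not pass the test. Of all genes, 44.4% rose and 32.9% fell, and these shares also stand beside the counts of each list that follow. The 78.4% called is close to the 77.3% of all genes, and the median log2 difference was 0.04. Of the 51, the DEG criteria were met by 3 genes that rose, BMP2, SMAD4 and IGFBP7, beside 4.68% of all genes. They were also met by 4 that fell, CDKN1A, KLF10, AGRN and FURIN, beside 1.77% of all genes. The level criterion of 1 FPKM in both lines kept out wider differences, among them TGFBI, PMEPA1 and LTBP2, which fell, and SPOCK1 and PCSK5, which rose. TGFBI met the criteria without 231-BR replicate 1 or without 231-BR replicate 2. SMAD4 no longer met them with a pseudocount of 1, median-of-ratios scaling or quantile normalization, under which its log2 difference was as low as 0.79.

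Among other ligands, INHA, which pairs with β subunits to form inhibins, and INHBC, INHBE and NODAL were below the filter. Of the 5 tested, 3 rose and 1 fell, with a median log2 difference of 0.70. BMP4, the most abundant, went from 17.7 ± 0.536 to 34.3 ± 1.31 FPKM (log2 difference 0.95, SE 0.038, adjusted p = 7.65e-09). BMP2, which like BMP4 acts mainly through SMAD1 and SMAD5, was at 7.5 ± 0.368 FPKM in 231-BR and 2.51 ± 0.095 FPKM in MDA-MB-231 cells, a log2 difference of 1.54. GDF11, an activin-like ligand that follistatin also binds, was at 4.78 ± 0.180 and 2.90 ± 0.197 FPKM, a log2 difference of 0.70 (adjusted p = 5.88e-06).

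Among the other receptors of the superfamily, 3 of 5 tested rose and 2 fell. TGFBR2, the type II receptor of TGF-β and the most abundant, fell from 63.0 ± 2.17 to 55.2 ± 0.577 FPKM, by 0.19 on the log2 scale. BMPR1A rose from 8.55 ± 0.312 to 10.3 ± 0.173 FPKM, and TGFBR1, the type I receptor of TGF-β, from 4.86 ± 0.495 to 6.92 ± 0.190 FPKM. ACVR1C (ALK7), another type I receptor for activin B, had means of 0.070 FPKM in 231-BR and 0.043 FPKM in MDA-MB-231 cells and was below the filter.

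Of the co-receptors and decoys, 1 of 3 tested rose: TGFBR3 (betaglycan), which helps inhibin bind type II receptors, went from 4.72 ± 0.232 to 6.60 ± 0.122 FPKM, a log2 difference of 0.48. BAMBI, a decoy type I receptor without a kinase, was at 6.42 ± 0.425 FPKM in 231-BR and 7.03 ± 0.455 FPKM in MDA-MB-231 cells (log2 difference -0.13, adjusted p = 0.0994 in limma), and it passed as lower under 4 of 14 alternatives, the replicate block and both other scalings among them. FKBP1A, which holds type I receptors inactive, was at 629 FPKM in both lines (SD 3.97 in 231-BR and 0.696 in MDA-MB-231 cells). TDGF1 (Cripto), a co-receptor of NODAL that also binds activin, was below the filter.

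Of the 15 SMAD proteins and regulators tested, 8 rose, 4 fell and 3 did not pass the test, with a median log2 difference of 0.15. Among all genes, 44.4% rose and 32.9% fell. The receptor-activated pair went opposite ways: SMAD3 fell from 30.9 ± 0.710 to 17.4 ± 0.230 FPKM (log2 difference -0.83, SE 0.031, adjusted p = 5.47e-09 in limma), and SMAD2 rose from 3.76 ± 0.181 to 7.16 ± 0.067 FPKM (log2 difference 0.91, SE 0.054). SMAD2 was named after its values were seen. SMAD4, the common partner, rose from 3.08 ± 0.070 to 6.39 ± 0.127 FPKM, a log2 difference of 1.03. The ubiquitin ligases SMURF2, at 101 ± 0.288 FPKM in 231-BR and 62.2 ± 2.33 FPKM in MDA-MB-231 cells, and NEDD4L, at 79.5 ± 1.55 and 55.2 ± 0.745 FPKM, were the most abundant of the list and both rose, by log2 differences of 0.70 and 0.53. SMAD7, an inhibitory SMAD, fell from 3.13 ± 0.424 to 0.980 ± 0.026 FPKM (log2 difference -1.57). SMAD6, the other inhibitory SMAD, rose from 0.587 ± 0.127 to 1.35 ± 0.083 FPKM (log2 difference 1.10). Both were named after their values were seen.

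Of 11 known targets of SMAD2 and SMAD3 tested, 7 fell, 3 rose and 1 did not pass the test, beside 32.9% of all genes that fell and 44.4% that rose. The median log2 difference of these targets was -0.79, beside 0.08 over all genes. Of the rises, that of TAGLN was lost under 4 of 14 alternatives, both other scalings among them, with a change of sign under 1. These genes answer to many other signals as well. CDKN1A, the cell cycle inhibitor p21, fell from 37.9 ± 0.536 to 9.95 ± 0.728 FPKM (log2 difference -1.92, SE 0.049, adjusted p = 3.25e-10), and KLF10, an early response gene of TGF-β, from 24.3 ± 0.587 to 10.5 ± 0.201 FPKM. The largest decreases of the list, of which PMEPA1 and LTBP2 were named after their values were seen, were in 3 genes. TGFBI, an extracellular matrix protein, was at 0.987 ± 0.134 FPKM in 231-BR and 94.6 ± 1.11 FPKM in MDA-MB-231 cells (log2 difference -6.45), PMEPA1, a feedback inhibitor, at 0.070 ± 0.030 and 3.95 ± 0.316 FPKM (-4.59, between -5.70 and -2.21 over the alternatives), and LTBP2 at 0.580 ± 0.026 and 9.76 ± 0.344 FPKM (-3.86).

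Not all targets fell. CCN2, a matricellular growth factor listed as CTGF in the table, rose from 162 ± 3.10 to 231 ± 1.29 FPKM, a log2 difference of 0.51. THBS1 was at 67.6 ± 0.504 FPKM in 231-BR and 68.6 ± 2.83 FPKM in MDA-MB-231 cells (log2 difference -0.02, adjusted p = 0.541 in limma). Whether the differences of these genes have to do with FST was not tested.

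**Figure D4:**
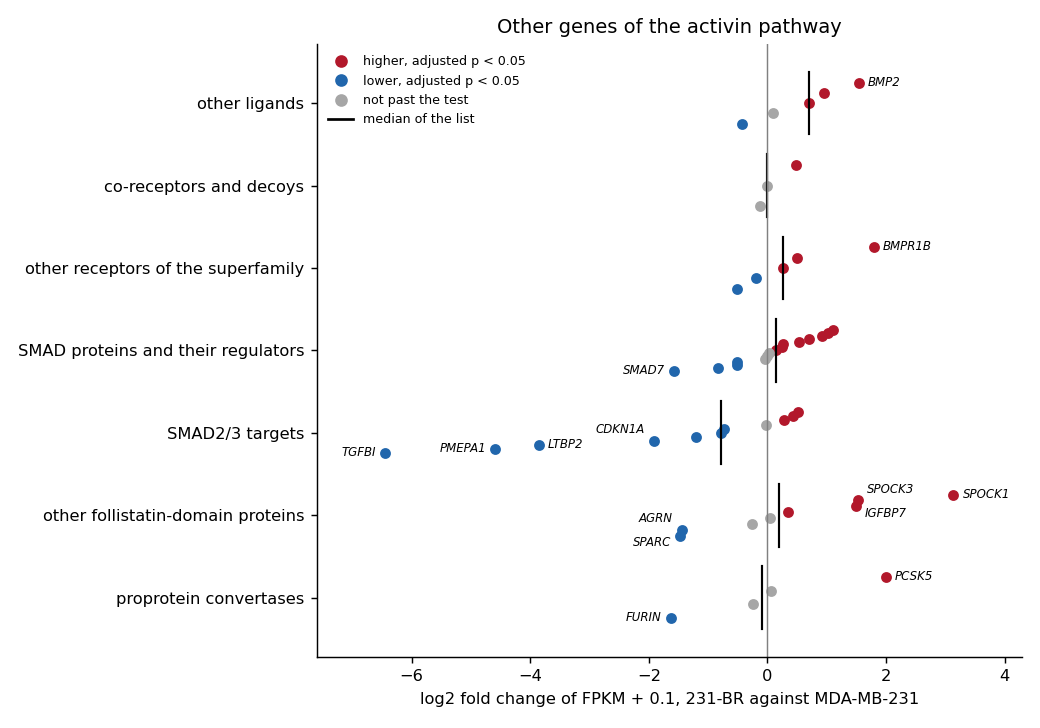
Log2 fold change of FPKM + 0.1, 231-BR against MDA-MB-231, for the 51 tested genes of 7 pathway lists; red points rose and blue points fell in limma at an adjusted p under 0.05, grey points did not pass, and black lines are list medians. The SMAD2/3 targets reach furthest down, to -6.45 for TGFBI, with a median of -0.79, and the other lists have medians between -0.09 and 0.70.

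Other proteins with a follistatin domain, none of them known as an activin trap of the follistatin kind, were 8 among the genes tested, of which 4 rose and 2 fell. Among the rises, that of TMEFF1 was lost under 9 of 13 alternatives, with a change of sign under 1 of them. IGFBP7, a secreted binding protein, rose from 56.2 ± 3.30 to 158 ± 1.46 FPKM (log2 difference 1.49), and AGRN, the proteoglycan agrin, fell from 50.1 ± 1.19 to 18.3 ± 0.618 FPKM (log2 difference -1.45). HTRA1, a secreted protease, was at 5.37 ± 0.044 FPKM in 231-BR and 5.24 ± 0.120 FPKM in MDA-MB-231 cells (adjusted p = 0.523 in limma). SPOCK1, the largest rise of the list and named after its values were seen, went from 0.200 ± 0.035 to 2.53 ± 0.139 FPKM.

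Activin precursors are cleaved by proprotein convertases, of which 1 of 4 tested rose and 1 fell. FURIN fell from 22.6 ± 0.165 to 7.21 ± 0.204 FPKM (log2 difference -1.63, SE 0.037, adjusted p = 1.6e-10), while PCSK5 rose from 0.583 ± 0.075 to 2.63 ± 0.110 FPKM (log2 difference 2.0). PCSK7 was at 9.55 ± 0.499 FPKM in 231-BR and 9.14 ± 0.636 FPKM in MDA-MB-231 cells (adjusted p = 0.353 in limma). FURIN was the most abundant of the list in MDA-MB-231 and PCSK7 in 231-BR cells.

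Over the 6 libraries, the 5 genes whose levels were closest to those of FST were KRT19, ESM1, KCNAB2, FGF5 and FKBP10. Closeness was the root mean square difference of log2(FPKM + 0.1), which was 0.263 for KRT19 and between 0.512 and 0.769 for the others. KRT19, a keratin, was at 90.9 ± 3.32 FPKM in 231-BR and 2.90 ± 0.332 FPKM in MDA-MB-231 cells. ESM1, an endothelial proteoglycan, was at 50.3 ± 1.58 and 3.79 ± 0.178 FPKM, and FGF5, a growth factor, at 54.3 ± 1.09 and 5.01 ± 0.305 FPKM. As all libraries fall into 2 lines, any gene with similar means in each comes out close to FST.

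On its chromosome, FST stood apart from the genes around it. The median log2 difference of the 40 nearest genes with a mean of at least 1 FPKM, 20 on either side, was 0.02, and none of them had a higher one than FST. The genes next to it were at 0.12 (MOCS2) and -0.23 (NDUFS4), and the highest of the 40 was ESM1, the fourth of these genes downstream of FST, at 3.70. INHBA also lay above its neighbours, which had a median of -0.03, with 2 of 40 higher, PDE1C and AMPH.

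The smaller differences lay at differing places among those of their surroundings. FSTL1, at 0.57, had neighbours with a median of 0.59, of which 23 of 40 were higher. FSTL3, at -0.25, had 27 neighbours with a median of -0.49, of which 6 were higher. ACVR1, at -0.64, lay among genes with a median of -0.19, of which 37 of 40 were higher, and GALNT5, the gene next to it, was at 5.54. INHBB, at 0.19, had neighbours with a median of -0.38, of which 3 of 40 were higher. The medians around ACVR1B, ACVR2A and ACVR2B were -0.32, -0.29 and 0.12, with 13, 15 and 23 of 40 higher. DNA copy number was not measured in these files.

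**Figure D5:**
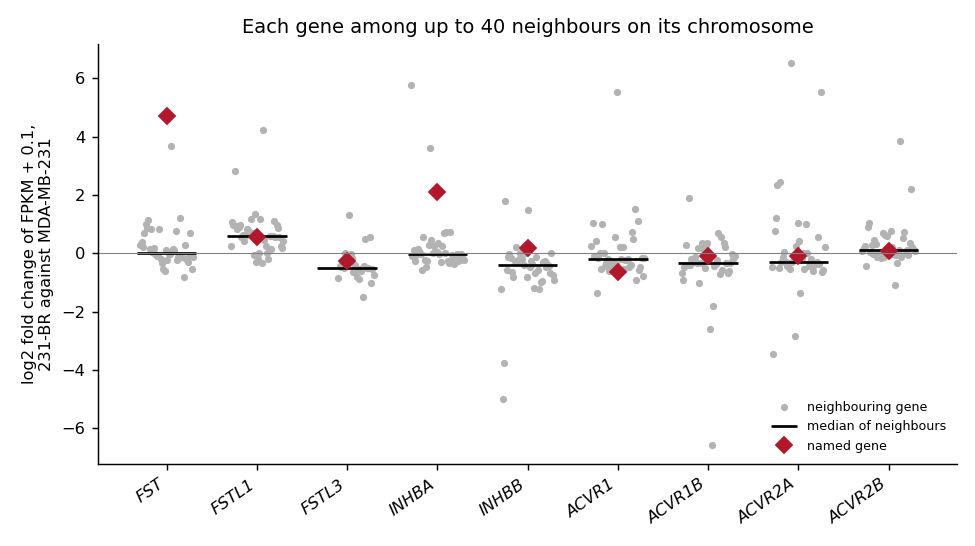
Log2 fold change of FPKM + 0.1, 231-BR against MDA-MB-231, of each of the 9 genes (red diamonds), of up to 40 nearest genes on its chromosome with a mean of at least 1 FPKM (grey points) and the median of these neighbours (black lines). FST lies above all its neighbours, at 4.70 against a median of 0.02, whereas FSTL1 lies on its neighbours' median.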

How the data were processed

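Poly(A) RNA of 3 libraries of 231-BR and 3 of MDA-MB-231 cells was sequenced in paired ends on a BGISEQ platform. The authors filtered reads with SOAPnuke, and the submitters' processing notes name HISAT2 2.0.4, Bowtie2 2.2.5 and build GRCh38.p12. The deposited values are FPKM per gene with 2 decimals, not scaled further between libraries; the program that computed them and the annotation release are not given in the sources used here. The study tested counts; as FPKM are not counts, limma was used.

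The log2(FPKM + 0.1) values of the 13465 genes with a mean of at least 0.1 FPKM were fitted in limma 3.58.1 (R 4.3.3) with a term for the cell line (lmFit, eBayes with trend), and p-values were adjusted by Benjamini-Hochberg over these genes. A log2 difference understates the change of genes near the pseudocount. The fit was tested on simulated data. The members, the pathway lists and the tests were chosen with earlier results of these data known. Named were the 9 members, from each list the DEGs and the 3 genes of highest mean FPKM, and the 5 genes closest to FST. Any other list gene named is marked so, was below the filter, or lost its call under alternatives. Cell type markers and neighbouring or overlapping genes are named besides. Some single results are not reported here. Alternatives covered pseudocount, filter, scaling, variance trend, replicate block, criteria, genes summed and libraries left out. A design of 3 against 3 allows no exact permutation p under 0.1, so none was computed. Upstream windows came from RefSeq (GRCh38.p14), which held at least 1 for each of the 9 genes, and gene positions from GENCODE release 29. Counting strand is not stated. Figures were drawn with Python 3.11.15 and matplotlib 3.10.9.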

Additional observations from a re-analysis of the deposited data

How the results depend on the processing

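Of 125 fold changes of the 9 genes recomputed under other settings, 116 kept their direction and their side of the threshold. A further 6 kept their direction and passed it in addition, and 3 changed sign. The sign changes were INHBB under quantile normalization (-0.20) and ACVR2B under median-of-ratios scaling (-0.00087) and quantile normalization (-0.32). Under quantile normalization ACVR2B also passed the threshold, as lower. Members lower in 231-BR cells numbered 4 under median-of-ratios scaling and 5 under quantile normalization in place of 2, with ACVR1B and ACVR2A lower under both, while genes called lower overall went from 32.9% to 38.5% and 42.7%. Without the variance trend, 4 members were higher and 3 lower, beside 43.3% and 31.9% of all genes. The added calls were INHBB as higher and ACVR2A as lower. INHBA has no value under a filter of 1 FPKM, which it did not pass. FST met the DEG criteria under every setting tried. The ratio of traps to ligand subunits was 68.7 in 231-BR and 44.8 in MDA-MB-231 cells with FSTL1 counted as a trap. For FST over INHBA it was 90.8 and 26.6, the latter from libraries between 17.9 and 42.3. Without 1 library the ratio of FST and FSTL3 to both subunits ran from 31.6 to 34.1 in 231-BR and from 5.33 to 6.08 in MDA-MB-231 cells. Pathway genes called numbered 19 to 24 higher and 14 to 23 lower, beside 35.8% to 45.5% higher and 26.4% to 42.7% lower over all genes. The calls of TAGLN, ZFYVE9 and TMEFF1 were lost under both other scalings and without MDA-MB-231 replicate 2, among other settings. Of the DEGs over all genes, 72.6% were higher in 231-BR cells, beside 63.4% under median-of-ratios scaling and 53.3% under quantile normalization.

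Replicate numbers were not shown to pair the libraries: deviations from the line means of same-numbered libraries correlated at 0.087, -0.040 and -0.106, and 2 of 6 libraries correlated best with their own number. With a replicate block, 10502 of 13465 genes were called in place of 10406, 44.7% of all genes as higher and 33.3% as lower. Beside these shares, members still numbered 3 higher and 2 lower with 1 DEG, and pathway genes 22 higher and 18 lower. Depth is unknown, so the precision of INHBA near 0.1 FPKM could not be given.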
